A study of Mus musculus with 39 samples.

Results

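In brown fat of control mice, 446 of 3022 listed BCL6 binding peaks sat at an annotated promoter and had a Peak Score below 10. These weaker promoter peaks were selected on 2 deposited columns, an annotation that starts with promoter-TSS and the Peak Score, so their scores and positions are described here without a test. They named 442 nearest genes by Entrez identifier. The list held 485 promoter peaks in all, and the other 39 scored 10 or more.

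BCL6 is a zinc-finger repressor of the BTB family. It binds DNA elements that resemble those of STAT factors and recruits corepressors, and it is best known from germinal centre B cells. In brown fat, the depot that burns fuel to make heat, it has been studied as a factor that keeps adipocyte identity in the warm. A peak at a promoter marks a place where antibody-bound fragments piled up. It does not by itself show that the gene responds to the factor.

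Peaks came from 1 BCL6 ChIP sample, interscapular brown adipose tissue of male BCL6-floxed (C57BL/6J) mice labelled BCL6ff Cre- and housed at 30 °C. RNA came from 16 libraries of the same depot and sex, 4 in each of 4 groups, labelled BCL6ff Cre- or BCL6ff UCP1Cre+ and housed at 22 or 30 °C. All 4 groups carried the floxed Bcl6 gene, and the Cre was driven by Ucp1, which is active in brown adipocytes and leaves other cells of the tissue with intact Bcl6. Ages are not given in the labels, nor is it stated that each library is another animal, and p-values measure only the spread between these samples. Libraries labelled UCP1Cre+ are called Cre-labelled, because total Bcl6 RNA was higher in them: 3269 to 5159 normalized counts at 30 °C against 1020 to 2340 in controls, and 2671 to 3927 against 764 to 1838 at 22 °C. Which exons were removed is not stated, so whole-gene RNA checks nothing about the deletion. Of the brown fat markers, Ucp1 lay between 3761 and 119700 and Cidea between 13230 and 56990 normalized counts over all groups. Mean Ucp1 was lower in Cre-labelled libraries, at 5329 against 16600 at 30 °C and 45890 against 88820 at 22 °C. So was mean Cidea. For Ucp1 and Cidea the libraries of the groups overlapped at 22 °C. Mean Dio2 was higher in Cre-labelled libraries, but the groups overlapped at both temperatures. Dio2 controls lay at 87.67 to 163.4 and Cre-labelled libraries at 130.5 to 1253 at 30 °C. At 22 °C they lay at 1632 to 7357 and 1693 to 6268. Elovl3 was at 283 to 1718 in controls and 28.35 to 70.98 in Cre-labelled libraries at 22 °C. It was low at 30 °C, at 1.98 to 14.7 in controls and 0.678 to 4.85 in Cre-labelled libraries.

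The scores fell on a ladder. Every score below 10 lay within 0.0047 of a whole multiple of 0.1788, over 2651 peaks. The lowest member score, 4.11, was 23 steps and the highest, 9.83, was 55 steps. The median was 4.83 (27 steps), and the middle part of the members ran from 4.47 to 5.54. Most of these peaks were therefore close to the lowest score in the list. The members just inside the cut were 9530052C20Rik (9.83), Sptlc2 (9.65), Strip2 and Uspl1 (both 9.12), and Ddx47 and Top2b (both 8.94). Just outside it were Trim6 (10.0), Pcnx4 and Ttc41 (both 10.2). At the bottom of the ladder stood, among others, Mlycd, Bhlhb9, Rpl14, Cck and Camp, each at 4.11.

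Peak centres lay between 927 bases upstream and 875 bases downstream of the annotated start, with a median distance of -176.5 bases. Of the 446 peaks, 307 (68.8%) were upstream of the start and 243 were within 250 bases of it. By 100-base bins, 80 peaks lay in the first 100 bases downstream, 46 in the last 100 bases upstream, and 62, 57 and 55 in the next 3 bins upstream. The focus ratio, the authors' deposited share of a peak's tags that falls near its centre, had a median of 0.688 for the members and 0.819 for promoter peaks scored 10 or more. The nearest gene was protein-coding for 416 peaks, noncoding for 29 and a pseudogene for 1. Smc3, Dimt1, Hmgxb3 and Gmeb2 had 2 member peaks each. A stronger peak, scored 10 or more, lay elsewhere near 7 members, among them Flvcr2 and Ptpn4.

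**Figure D1:**
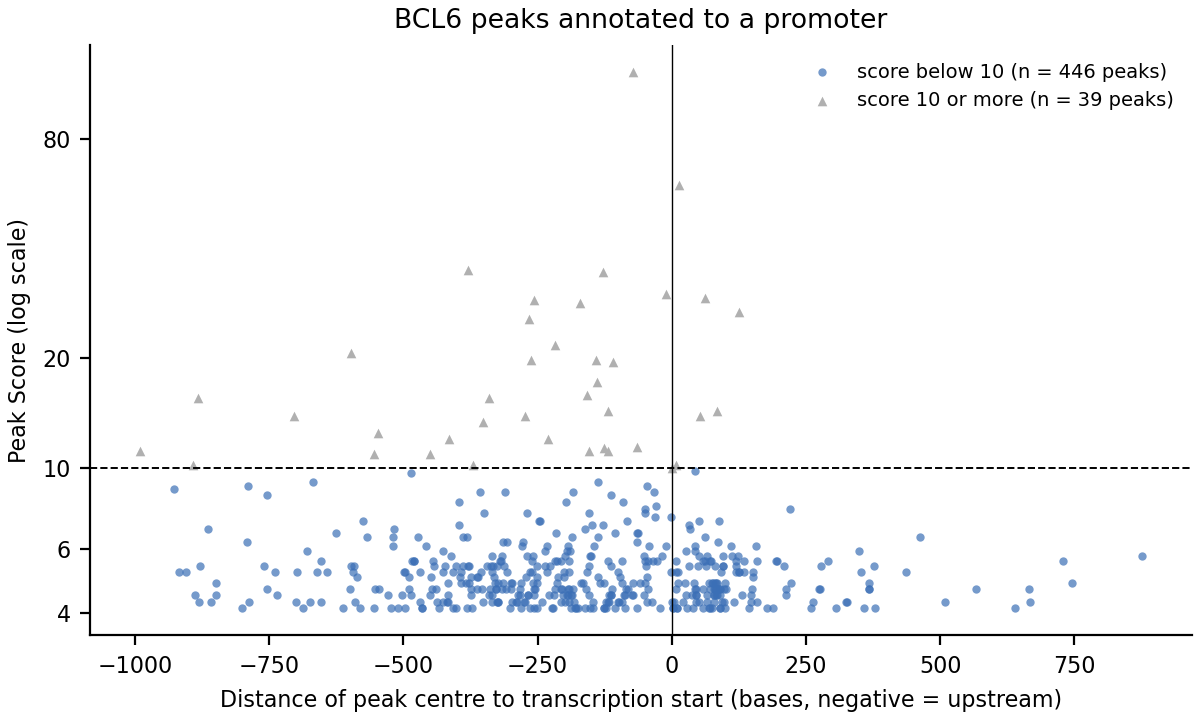
Peak Score (log axis) against the distance of the peak centre from the transcription start, for 446 promoter peaks scored below 10 (blue) and 39 scored 10 or more (grey triangles); the dashed line is the cut. The blue points crowd near 4.11 to 5.54 on both sides of the start, with more of them upstream.

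The sequence under these peaks was read where a RefSeq promoter window held it. Each window runs from 250 bases before to 50 bases after a start (GRCm38.p6, the build called mm10). Windows were found for 357 of the 442 genes, and 69 peaks lay whole inside one. The 5 members below are shown because the 101 bases around their centre held the BCL6 core TTCCTNGAA on either strand. Capitals mark it or its reverse complement, and letters run 5′ to 3′ on the strand of the window's gene, from the peak's deposited start to its end. They are Strip2 (chr6:29916785-29916965, plus strand, score 9.12), Wdr83os (chr8:85080783-85080963, plus strand, 8.04), Zfp85os (chr13:67729141-67729321, minus strand, 7.33), Fcor (chr8:3672363-3672543, minus strand, 6.61) and Ccdc59 (chr10:105841370-105841550, minus strand, 5.72).
Strip2: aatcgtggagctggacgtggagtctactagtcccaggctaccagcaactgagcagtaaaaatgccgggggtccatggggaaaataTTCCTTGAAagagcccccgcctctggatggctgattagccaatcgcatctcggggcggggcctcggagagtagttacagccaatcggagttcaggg
Wdr83os: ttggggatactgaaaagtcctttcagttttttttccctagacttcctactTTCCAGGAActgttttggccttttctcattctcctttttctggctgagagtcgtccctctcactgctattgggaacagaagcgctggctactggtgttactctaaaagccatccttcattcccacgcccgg
Zfp85os: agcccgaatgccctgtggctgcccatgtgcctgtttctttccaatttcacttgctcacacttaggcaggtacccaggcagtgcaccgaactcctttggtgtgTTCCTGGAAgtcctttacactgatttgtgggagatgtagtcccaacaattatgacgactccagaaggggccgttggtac
Fcor: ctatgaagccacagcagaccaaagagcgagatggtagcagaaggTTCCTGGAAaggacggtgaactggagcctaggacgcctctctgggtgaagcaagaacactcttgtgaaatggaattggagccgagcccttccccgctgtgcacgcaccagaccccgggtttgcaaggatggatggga
Ccdc59: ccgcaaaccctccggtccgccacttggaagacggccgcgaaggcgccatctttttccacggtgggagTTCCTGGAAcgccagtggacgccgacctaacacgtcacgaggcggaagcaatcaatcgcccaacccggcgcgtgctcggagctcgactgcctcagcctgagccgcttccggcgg

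The peaks of 3 other members are shown next. The peak of 0610005C13Rik (chr7:45575191-45575371, minus strand, score 6.61) belongs to the member with the largest RNA difference by Cre label, and it has no match to TTCNNNGAA, the looser palindrome shared by BCL6 and STAT factors. The peaks of Mlycd (chr8:119394715-119394895, plus strand, 4.11) and Ddx47 (chr6:135011475-135011655, plus strand, 8.94) hold the ETS letters CCGGAAG or their reverse complement, in capitals. The Ccdc59 peak above also holds them, as CTTCCGG in small letters near its end. Proteins of the ETS family bind such letters at many housekeeping promoters.
0610005C13Rik: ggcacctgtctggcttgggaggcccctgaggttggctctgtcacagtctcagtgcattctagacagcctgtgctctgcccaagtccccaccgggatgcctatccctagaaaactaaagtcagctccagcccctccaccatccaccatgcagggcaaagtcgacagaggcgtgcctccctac
Mlycd: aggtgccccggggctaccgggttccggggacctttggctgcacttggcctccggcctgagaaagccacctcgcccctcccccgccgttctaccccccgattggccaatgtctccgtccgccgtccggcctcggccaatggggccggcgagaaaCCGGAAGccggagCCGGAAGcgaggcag
Ddx47: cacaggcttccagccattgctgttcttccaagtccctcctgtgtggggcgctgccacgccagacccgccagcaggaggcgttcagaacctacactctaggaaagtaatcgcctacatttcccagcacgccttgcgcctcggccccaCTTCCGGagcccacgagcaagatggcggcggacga

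The BCL6 core was scarce under the weaker peaks and commoner under the stronger ones. The centre of a peak could be read for 101 members and for 11 promoter peaks scored 10 or more. It held the core in 5 of the 101 (4.95%) and in 5 of the 11 (45.5%), beside 0.521% for the middle 101 bases of all 32851 windows and 0.449% for the windows of tested genes. Within the members, all 5 matches were among the 43 centres scored above the median of 4.83 (11.6%), and 0 of 58 at or below it held one. The looser palindrome, which includes every core match, was in 10 of 101 member centres (9.9%), in 6 of 11 stronger ones (54.5%) and in 2.83% of window middles. These counts are descriptions of letters in a window, without a test. They cover only the peaks that lie near an annotated start.

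Whole promoter windows often do not hold the peak, since only 69 of the 446 member peaks lay whole inside one. The 467 member windows belong to 357 genes and include other starts of the same gene. Over these windows, letters of other factors were commoner than the BCL6 core. Of the 467 member windows, 108 (23.1%) held the ETS letters CCGGAAG on either strand, beside 16.7% of the 13363 windows of tested genes, 8.86% of all windows and 8.16% of the 49 windows of genes with a stronger promoter peak. NRF1 letters (GCATGCGC) were in 36 (7.71%), beside 4.89%, 2.71% and 2.04%. YY1 letters (AAGATGGC) were in 32 (6.85%), beside 4.25%, 2.75% and 0 of 49. NRF1 and YY1 regulate housekeeping and mitochondrial genes. In the peaks themselves the ETS and NRF1 letters were near the background: ETS was in 5.94% of member centres beside 4.83% of the middles of windows of tested genes, and NRF1 in 0.99% beside 1.73%. ETS was in 14.5% of the 69 member peaks read whole and in 12.5% of the 8 stronger promoter peaks read whole. Among the 11 centres of stronger promoter peaks, 2 (18.2%) held the ETS letters. The BCL6 core was in 15 member windows (3.21%), beside 1.21% of the windows of tested genes and 12.2% of those with a stronger peak. The GC box GGGCGG was in 61.0% of member windows and 61.4% of windows of tested genes, so its share was near the background. The same holds for base composition: the median GC share was 60.7% in both sets, and the median observed-to-expected CpG ratio was 0.75 in member windows and 0.742 in windows of tested genes, against 0.384 in all windows. Another gene started on the opposite strand within 1000 bases upstream for 82 of 357 members (23.0%), beside 19.4% of tested genes.

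**Figure D2:**
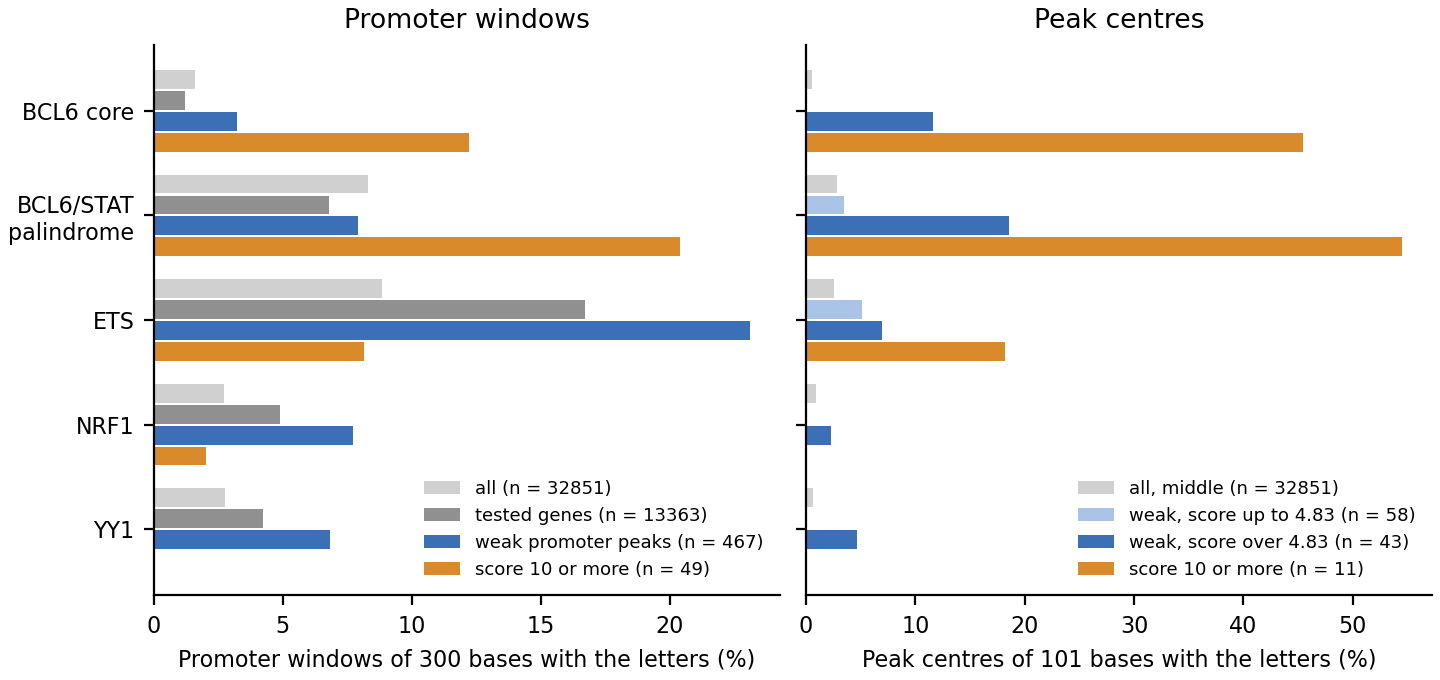
Share of sequences that hold each set of letters on either strand: left, promoter windows of 300 bases; right, 101 bases around peak centres, beside the middle of all windows. The longest bar on the left is ETS in the windows of member genes (23.1%), which often do not hold the peak. On the right the BCL6 core is in 0% of lower-scored and 11.6% of higher-scored weaker peaks. It is in 45.5% of peaks scored 10 or more.

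The window of Aldh9a1 is shown because its core lies outside the peak. The member peak is centred 553 bases upstream, while the window (chr1:167349741-167350040, plus strand) starts 250 bases upstream and holds the reverse complement of the core, in capitals, nearer to its upstream edge. Aldh9a1 encodes an aldehyde dehydrogenase of carnitine synthesis.
Aldh9a1: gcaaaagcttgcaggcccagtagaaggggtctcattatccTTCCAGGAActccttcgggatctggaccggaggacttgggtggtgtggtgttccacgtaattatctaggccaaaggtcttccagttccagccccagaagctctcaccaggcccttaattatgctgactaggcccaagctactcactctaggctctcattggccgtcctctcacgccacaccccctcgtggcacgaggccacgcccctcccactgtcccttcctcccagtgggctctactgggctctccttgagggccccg

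Nearly all nearest genes were expressed. RNA values existed for 435 of the 442 genes, and the other 7 (9530052C20Rik, A930007A09Rik, Fcor, Gm16364, Gm29679, Gm7467 and Gm9828) were not matched in the RNA table. A mean of at least 10 normalized counts over the 16 libraries was required for testing, which 408 members passed. That is 92.3% of the members, 89.7% of genes with a stronger promoter peak and 54.6% of all gene entries. Of the 27 that did not pass, 6 were at 0 in all libraries. All tests below were fitted on 13176 genes with limma on log2(normalized count + 1), with Benjamini-Hochberg adjustment over all of them and a threshold of 0.05. On that scale the change of low genes is understated.

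In bulk tissue, fewer cells of a type and less RNA per cell cannot be told apart. The first question is whether genes at weaker promoter peaks differed by Cre label. Between Cre-labelled and control brown fat they did so about as often as any gene. At 30 °C, 22 of 408 members were higher (5.39%) and 26 were lower (6.37%) in Cre-labelled libraries, beside 5.65% and 6.85% of all genes tested. The median log2 difference was -0.01 for the members and 0.01 for all genes. At 22 °C, 20 members were higher (4.9%) and 15 lower (3.68%), beside 5.51% and 4.69% of all genes, with medians of -0.04 and 0.00. A share this near the background says nothing particular about the members. The 7 members with a stronger peak elsewhere account for 2 of the higher calls at each temperature, Flvcr2 and Ptpn4. The counts were sensitive to the libraries used. The libraries with the fewest genes above 0 were library 1 of the 22 °C controls and library 2 of the Cre-labelled group at 22 °C. With both left out, there were 36 higher and 50 lower at 30 °C and 31 and 37 at 22 °C. The background moved with them, to 10.1% and 11.1% at 30 °C and 8.72% and 9.06% at 22 °C. Neither library is in the 30 °C comparison, so its log2 differences stayed the same (member median -0.01) and only the p-values changed. Leaving out single libraries also moved the counts. More members were called at 30 °C without Cre-labelled 30 °C library 2, with 24 higher (5.88%) and 28 lower (6.86%). The shares over all genes then fell to 5.64% and 6.51%. In the fits listed next, members and all genes moved the same way. At 30 °C, 14 members were higher (3.43%, beside 4.16% of all genes) and 16 lower (3.92%, beside 5.04%) without Cre-labelled 30 °C library 3. The lower count was 14 (3.43%, beside 4.55%) without Cre-labelled 30 °C library 1 and 16 (3.92%, beside 4.22%) without control 30 °C library 4. At 22 °C, 33 were higher (8.09%, beside 8.84%) and 36 lower (8.82%, beside 9.03%) without Cre-labelled 22 °C library 2. The lower count there was 7 (1.72%, beside 2.91%) without control 22 °C library 3. It was 8 (1.96%, beside 2.73%) and 9 (2.21%, beside 3.36%) without Cre-labelled 22 °C libraries 3 and 4.

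Genes at other kinds of peaks are set beside these for scale, without a test of the difference. Of 35 tested genes with a promoter peak scored 10 or more, 6 were higher and 1 lower at 30 °C, with a median log2 difference of 0.31. At 22 °C 9 were higher and 1 lower, with a median of 0.25. Of 748 tested genes nearest to an intron peak scored below 10, 6.95% were higher and 7.89% lower at 30 °C. Within the members the score was only weakly related to the log2 difference. Spearman's rho between the score and the log2 difference was -0.08 at 30 °C and 0.02 at 22 °C over 408 genes, which share libraries and are not replicates. The 139 tested members scored 5.36 to 9.83 had 9 higher and 13 lower calls at 30 °C, the 129 scored 4.65 to 5.18 had 6 and 8, and the 140 scored 4.11 to 4.47 had 7 and 5. From the lowest band to the highest, the share called was 8.57%, 10.9% and 15.8% at 30 °C, with medians of 0.02, -0.01 and -0.06. At 22 °C it was 7.86%, 5.43% and 12.2%. Over all genes tested, the share called was 12.5% at 30 °C and 10.2% at 22 °C. The bands were not tested against each other. At 30 °C, members with a peak centre within 250 bases of the start had 11 higher and 16 lower calls of 221 (12.2%). The others had 11 and 10 of 187 (11.2%).

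**Figure D3:**
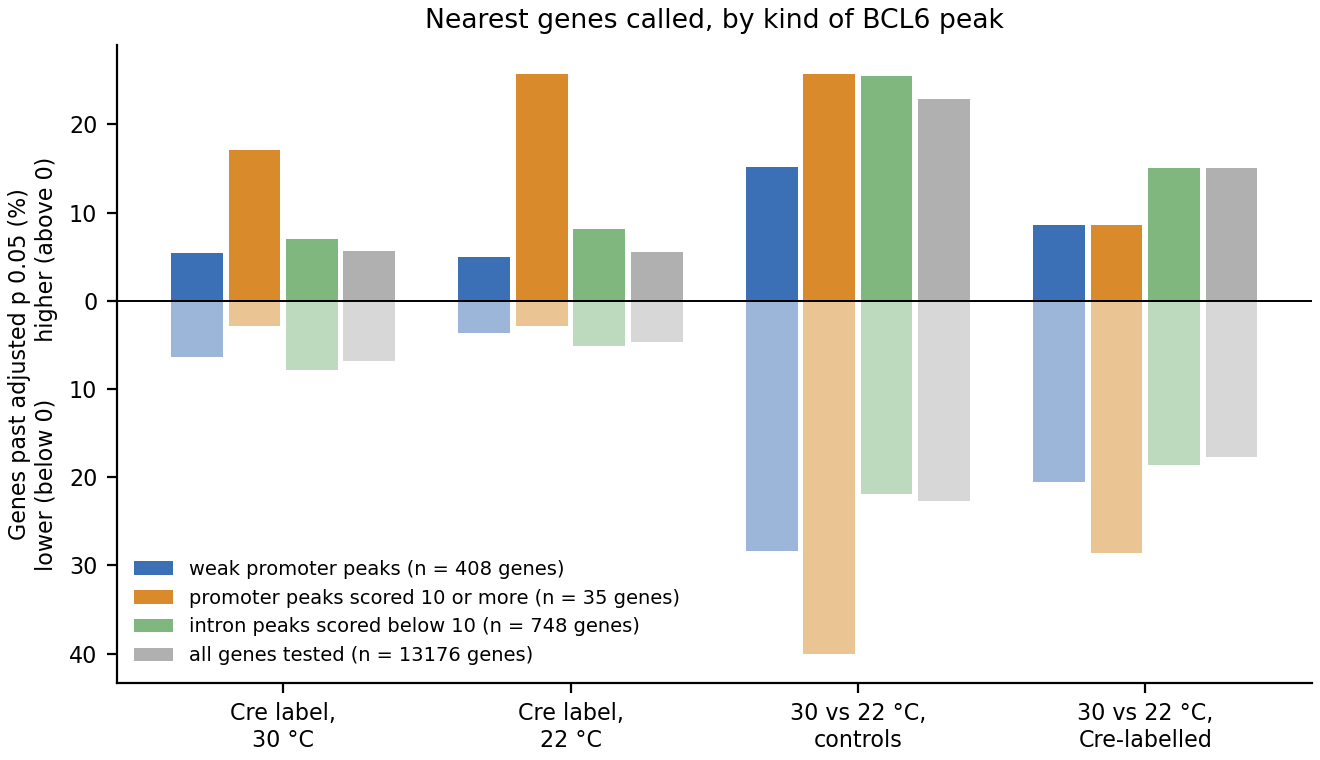
Percent of tested nearest genes past an adjusted p of 0.05, higher (above 0) and lower (below 0, paler), for 4 comparisons and 4 sets of genes. For both Cre-label comparisons the bars of the weaker promoter peaks are close to those of all genes tested; for temperature their lower bars are longer (28.4% and 20.6%) and their higher bars shorter (15.2% and 8.58%).

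A small set of members was higher in Cre-labelled libraries at both temperatures. There were 11 such genes among 408 tested members, beside 268 among all 13176 genes tested. The 11 were 50.0% of the members higher at 30 °C and 55.0% of those higher at 22 °C. Over all genes those shares were 36.0% and 36.9%. The 2 comparisons use different libraries. The 11 were 0610005C13Rik, Bhlhb9, Flvcr2, Gbp3, Ptpn4, Rasl11b, Slit3, Sparc, Sptlc2, Strip2 and Ttyh2. No member was called in opposite directions at the 2 temperatures. The rule for the genes named below required groups that do not overlap, so where it named a gene their separation is a description.

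Strip2 encodes a subunit of the STRIPAK complex, which joins a phosphatase to kinases. Its peak holds the BCL6 core printed above. Controls at 22 °C measured 46.0, 43.4, 56.5 and 97.2 normalized counts and Cre-labelled libraries 224, 200.4, 204 and 187. At 30 °C controls measured 305, 332, 336 and 499.7 and Cre-labelled libraries 733, 548, 630.5 and 522. Control and Cre-labelled libraries were fully apart in each case, and the gene was higher in the warm within each label (log2 difference 2.63, adjusted p = 3.14e-07, in controls and 1.56, adjusted p = 6.32e-05, in Cre-labelled libraries). The log2 difference by Cre label was 1.80 (SE 0.21, adjusted p = 3.94e-05) at 22 °C and 0.74 (SE 0.21, adjusted p = 0.0306) at 30 °C. The difference between these, an interaction of -1.07, missed the threshold (adjusted p = 0.171) and was the smallest adjusted interaction p among the members. Wdr83os and Ccdc59, which also hold the core, were at 283 ± 46.0 against 267 ± 36.2 and at 165 ± 13.7 against 177 ± 7.92 at 30 °C (SD, n = 4, control then Cre-labelled; adjusted p = 0.792 and 0.75). Zfp85os and Fcor were not tested.

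The noncoding 0610005C13Rik and the transporter gene Flvcr2 had the largest differences. Both lie outside the rule for named genes (a clone name and a level below 100) and were chosen after their values were seen. Control libraries of 0610005C13Rik measured 0 to 5.69 normalized counts at 22 °C and 0 to 3.67 at 30 °C. Cre-labelled libraries measured 66.8, 68.3, 477 and 221 at 22 °C and 240.5, 197, 71.1 and 299 at 30 °C. So it was near 0 in all 8 controls and far above in all 8 Cre-labelled libraries. The log2 difference was 6.14 (SE 0.69, adjusted p = 2.34e-05) at 30 °C and depended on the value added before taking logs (7.32 with 0.1 and 4.75 with 5). Flvcr2, of a family of membrane transporters, measured 0 to 4.02 in controls and 33.9 to 46.6 in Cre-labelled libraries at 22 °C, and 2.37 to 6.01 against 25.5 to 52.4 at 30 °C. Its stronger peak lies in its first intron, so its promoter peak is not its only one.

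Gbp3 encodes an interferon-induced GTPase, and its peak sits on its start (distance -1). Controls at 30 °C measured 543, 459.9, 621 and 524 normalized counts and Cre-labelled libraries 1118, 1104, 1058 and 767. The log2 difference was 0.91 (SE 0.14, adjusted p = 0.000356), and 1.11 (adjusted p = 6.13e-05) at 22 °C. All 8 Cre-labelled libraries were above all 8 controls.

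Rasl11b, a small GTPase of the Ras family, had the largest difference at 30 °C among the genes the rule names. It measured 19.3, 22.3, 29.7 and 26.2 in controls and 115, 107, 135 and 88.4 in Cre-labelled libraries (log2 difference 2.15, SE 0.35, adjusted p = 0.000769). At 22 °C the groups overlapped, with 8.52 to 36.8 against 33.9 to 75.1 (log2 difference 1.31, adjusted p = 0.0271).

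Bhlhb9, an X-linked gene with a peak at the lowest score, was both higher with the Cre label and lower in the warm. Control and Cre-labelled means were 378 ± 46.1 and 680.3 ± 83.7 at 22 °C and 184 ± 59.3 and 430.1 ± 15.3 at 30 °C (SD, n = 4). The log2 difference by Cre label was 1.27 (adjusted p = 8.16e-05) at 30 °C, and by temperature in controls it was -1.08 (adjusted p = 8.57e-05).

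Ptpn4, a tyrosine phosphatase, and Ttyh2, a tweety-family membrane protein, were also higher. Ptpn4 measured 268 ± 23.4 in controls and 527 ± 69.4 in Cre-labelled libraries at 30 °C (log2 difference 0.97, adjusted p = 0.000679). Ttyh2 measured 259 ± 25.0 and 481 ± 76.1 (0.88, adjusted p = 0.000769). Sptlc2, a subunit of the enzyme that starts sphingolipid synthesis and the member with the second-highest score, measured 453 ± 20.3 and 648.5 ± 76.0 (0.51, adjusted p = 0.00186). Its 4 control libraries lay between 425 and 469 and its Cre-labelled libraries between 576 and 719. Sparc and Slit3, a matrix protein and a secreted guidance protein, had log2 differences of 0.43 (adjusted p = 0.0161) and 0.76 (adjusted p = 0.0292) at 30 °C, and 0.44 and 0.76 at 22 °C.

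**Figure D4:**
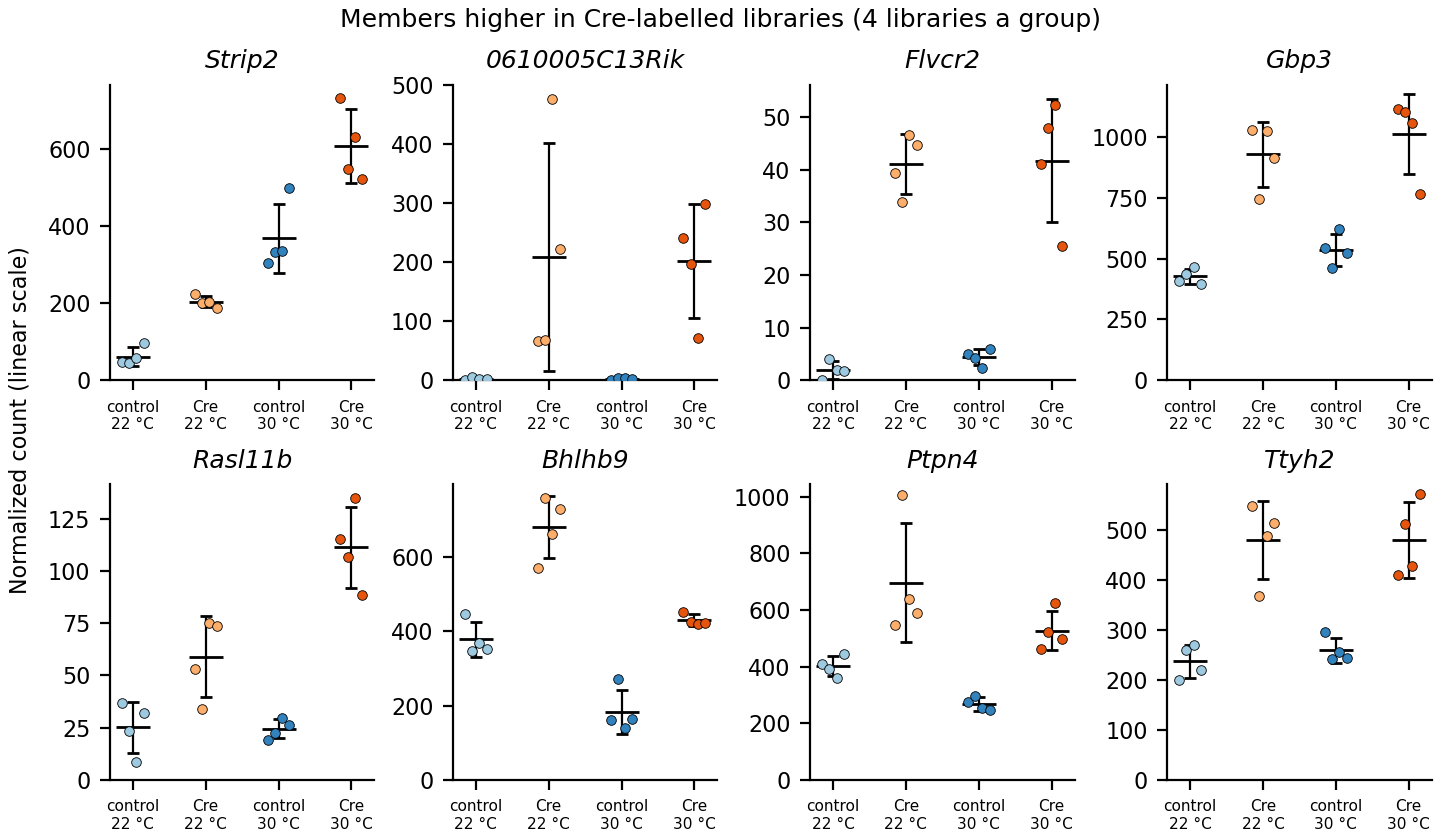
Normalized counts (linear axes from 0) of 8 member genes in the 16 RNA libraries; points are libraries, bars the mean and SD of 4 libraries a group. In each panel the Cre-labelled means lie above the control means at the same temperature, and Strip2 climbs from about 60.8 in controls at 22 °C to 608 in Cre-labelled libraries at 30 °C.

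Other members were higher at 30 °C and not called at 22 °C. Zyx, the focal adhesion protein zyxin, measured 607 ± 124 in controls and 1578 ± 435 in Cre-labelled libraries (log2 difference 1.35, adjusted p = 0.000808; 0.71 and adjusted p = 0.053 at 22 °C). Tnfrsf10b, a death receptor for the ligand TRAIL, measured 295 ± 48.2 and 615 ± 203 (1.01, adjusted p = 0.0192). Fggy, a carbohydrate kinase, measured 249 ± 38.0 and 429.8 ± 72.4 (0.78, adjusted p = 0.0196). The last 2 lost the call when single 30 °C libraries were left out, with adjusted p up to 0.0687 and 0.0662. Whether the Cre effect differs between temperatures was tested by the interaction, and none of these passed it. Beside these changes, 18 of 22 macrophage markers were higher at 30 °C in Cre-labelled libraries, where their summed level ran from 7880 to 26433 normalized counts against 4589 to 5932 in controls. Also higher at 30 °C were 2 of 13 lymphocyte and 4 of 14 endothelial markers, but 0 of 12 progenitor and 0 of 24 muscle markers. No macrophage, endothelial, lymphocyte, muscle or progenitor marker of the lists used was a member, and the part of such cells in the members' changes was not tested.

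Further members were higher at 22 °C and not called at 30 °C. Itpkc, a kinase of inositol trisphosphate, measured 66.2 to 118 in controls and 147.5 to 229 in Cre-labelled libraries (log2 difference 1.07, adjusted p = 0.0482). That call held in only 11 of 27 fits. Lppos, a noncoding RNA opposite to Lpp, measured 90.2 ± 18.4 and 166 ± 24.2 (0.89, adjusted p = 0.0111), and reads of Lpp may count toward it because the strand setting is not given. Top2a, the topoisomerase of dividing cells, measured 6.34 to 18.5 in controls and 19.6 to 53.0 in Cre-labelled libraries (1.84, adjusted p = 0.00382). By Cre label at 22 °C, 7 of 36 cell cycle genes were higher and 1 lower. Of 22 macrophage markers 8 were higher and 1 lower. Higher too were 4 of 13 lymphocyte and 5 of 14 endothelial markers, with 0 lower. The part of such cells in the members' rises was not tested.

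Members that were lower in Cre-labelled libraries are described next. Of 408 tested members, 6 were lower at both temperatures (Acyp2, Lyrm9, Mlycd, Oxct1, Stk38l and Tmem184c), beside 335 of all 13176 genes tested. The 6 were 23.1% of the members lower at 30 °C and 40.0% of those lower at 22 °C. Over all genes the shares were 37.1% and 54.2%.

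Oxct1 encodes the mitochondrial enzyme that lets tissues burn ketone bodies. Its peak, scored 5.54, is centred 59 bases after the start. Controls at 30 °C measured 6175, 6498, 5296 and 7190.0 normalized counts and Cre-labelled libraries 3429, 3741, 3125 and 3632. At 22 °C controls ran from 4808 to 5749 and Cre-labelled libraries from 3120.0 to 3856. The groups were apart at both temperatures. The log2 difference was -0.85 (SE 0.11, adjusted p = 8.8e-05) at 30 °C and -0.66 (SE 0.11, adjusted p = 0.00112) at 22 °C, and the gene hardly moved with temperature in controls (0.21, adjusted p = 0.134).

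Mlycd encodes malonyl-CoA decarboxylase, which removes the molecule that blocks fatty acid entry into mitochondria. Its peak is at the lowest score and holds 2 ETS matches. It measured 2207, 2513, 1835 and 1452 in controls and 1165, 1268, 1183 and 1207 in Cre-labelled libraries at 22 °C, and 646 to 811 against 459.7 to 666 at 30 °C. The groups were apart at 22 °C (log2 difference -0.70, SE 0.15, adjusted p = 0.00632) and overlapped at 30 °C (-0.50, adjusted p = 0.0348). Warmth lowered it in both labels, by a log2 difference of -1.39 in controls (adjusted p = 3.88e-06). Fuel genes without a member peak were also lower by Cre label. At 30 °C 20 of 33 fatty acid oxidation and 15 of 33 citric acid cycle genes were lower, and 1 and 0 higher. At 22 °C 15 and 11 were lower. These lists held 0 and 1 member, and a link between the peaks and the lower levels was not tested.

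Stk38l, a kinase of the NDR family, and Lyrm9, a small LYR-motif protein, were lower at both temperatures. Stk38l measured 758 ± 121 in controls and 412 ± 40.7 in Cre-labelled libraries at 30 °C (log2 difference -0.87, adjusted p = 0.000117), and 474 ± 44.5 and 352 ± 19.3 at 22 °C (-0.43, adjusted p = 0.0269). Lyrm9 measured 170.1 ± 15.7 and 100.4 ± 10.1 at 30 °C (-0.76, adjusted p = 0.00111).

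At 30 °C P2ry1, a receptor for ADP, measured 123, 158, 236 and 192 in controls and 54.8, 111, 90.8 and 61.3 in Cre-labelled libraries (log2 difference -1.16, adjusted p = 0.00528). Amn1 measured 192 ± 11.6 and 95.9 ± 19.8 (-1.02, adjusted p = 0.00445). Smad6, an inhibitor of BMP signalling, measured 119 ± 26.1 and 62.9 ± 19.7 (-0.94, adjusted p = 0.0283), a call lost in 5 of the fits without 1 library (adjusted p up to 0.103). Dmtn, the actin-bundling protein dematin, measured 881 ± 119 and 526 ± 30.5 (-0.73, adjusted p = 0.000254). Grk3, a kinase that turns off G-protein-coupled receptors, measured 1618 ± 80.1 and 1011 ± 231 (-0.71, adjusted p = 0.0178; 0.0621 without Cre-labelled 30 °C library 3).

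At 22 °C Aldh9a1, whose window is printed above, measured 2410.0 ± 198 in controls and 1514 ± 238 in Cre-labelled libraries (log2 difference -0.68, adjusted p = 0.00107). Mlec, an endoplasmic reticulum lectin, measured 3566 ± 568 and 2297 ± 172 (-0.62, adjusted p = 0.00382). Cipc, a repressor that binds the clock protein CLOCK, measured 913 ± 138 and 597 ± 49.4 (-0.60, adjusted p = 0.00395). At 30 °C their log2 differences were -0.21, -0.35 and -0.13, none past the threshold.

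**Figure D5:**
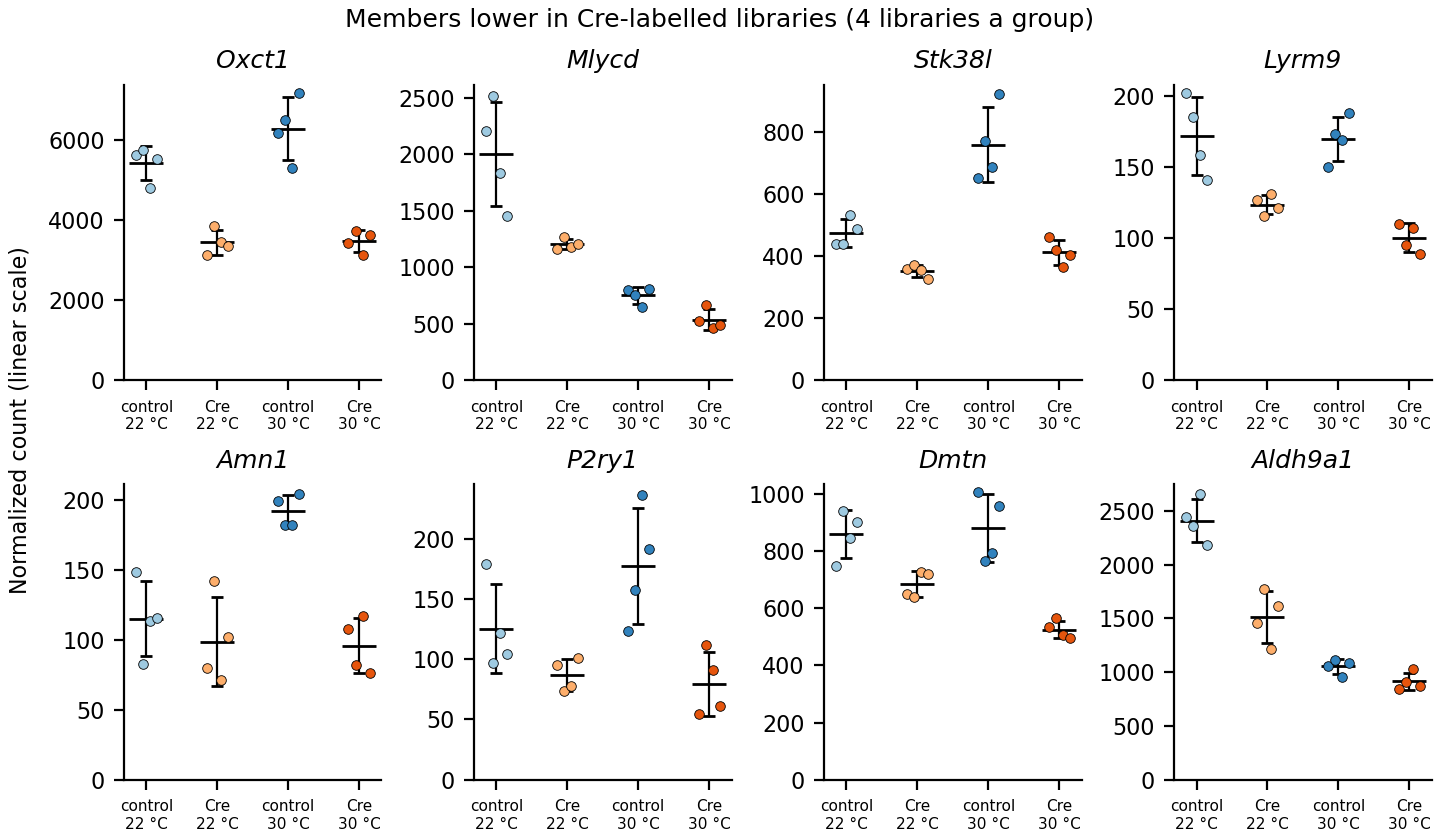
Normalized counts (linear axes from 0) of 8 member genes in the 16 RNA libraries; points are libraries, bars the mean and SD of 4 libraries a group. Cre-labelled libraries of Oxct1 lie at 3120.0 to 3856 at both temperatures, below every control (4808 to 7190.0).

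More members passed the threshold by housing temperature than by Cre label, and more of them were lower than higher in the warm. In controls 116 of 408 members (28.4%) were lower and 62 (15.2%) higher at 30 °C than at 22 °C, beside 22.7% and 22.9% of all genes tested. The median log2 difference was -0.10 for members and 0.04 for all genes. In Cre-labelled libraries 84 members (20.6%) were lower and 35 (8.58%) higher, beside 17.7% and 15.0%, with medians of -0.08 and 0.02. Leaving out library 1 of the Cre-labelled 30 °C group gave 23 higher (5.64%, beside 11.3% of all genes). Level matters to this background, since 387 of the 408 members had a mean of 50 or more. Among genes at that level, 29.7% of members and 26.3% of all genes were lower in controls, and 21.2% and 20.8% in Cre-labelled libraries, so the lower shares came near the background. The higher shares were 14.0% and 20.2% in controls and 8.01% and 14.0% in Cre-labelled libraries. The median over all genes at that level was -0.03 in both labels, and that of the members -0.11 in controls and -0.09 in Cre-labelled libraries. No test sets the members against other genes. Of genes with a stronger promoter peak, 14 of 35 were lower and 9 higher in controls, and of genes nearest to weak intron peaks 25.5% were higher and 21.9% lower.

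Some of the members lower in the warm were mitochondrial genes on the lists used. Of the 5 members that are subunits of the respiratory chain or ATP synthase, Ndufs8, Ndufb6, Atp5h and Atp5l were lower in the warm in controls, and these and Ndufa3 were lower in Cre-labelled libraries. Over the whole list of 71 such genes, 64 and 70 were lower, so the members moved with their pathway. Ndufs8, an iron-sulfur subunit of complex I, went from 5958 ± 1282 to 3001 ± 169 in controls (log2 difference -0.97, adjusted p = 5.58e-05). Ndufb6 went from 5251 ± 1922 to 2277 ± 142 (-1.15, adjusted p = 0.000316). All 3 member genes of the mitochondrial ribosome, Mrpl32, Mrpl45 and Mrpl53, were lower in both labels, beside 79 and 81 of 89 in that list. By Cre label at 30 °C none of these 8 passed the threshold with all libraries in the fit. Ndufs8 had a log2 difference of -0.38 (adjusted p = 0.0896) and passed in 5 of 27 fits, with adjusted p of 0.0309 without control 22 °C library 1, 0.0461 without Cre-labelled 22 °C library 2 and 0.00409 without both. Its log2 difference at 30 °C was unchanged in these fits without 22 °C libraries.

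Ribosomal proteins of the cytosol gave a different picture. Of the 5 members (Rpl14, Rpl6, Rps15, Rps2 and Rps21), 1 was lower in controls and none in Cre-labelled libraries, beside 14 and 4 of 80. By Cre label at 30 °C none of the 80 passed, and the 3 members with the smallest adjusted p were Rps21 (log2 difference 0.50, adjusted p = 0.359), Rpl6 (0.19, adjusted p = 0.521) and Rps15 (0.06, adjusted p = 0.894). Library 1 of the 22 °C controls and library 2 of the Cre-labelled group at 22 °C were also left out. Without them Rpl6 and Rps21 passed by Cre label at 30 °C (adjusted p = 0.046 and 0.0498), at unchanged log2 differences. Both libraries stood above the rest of their group in Rpl6. Rpl6 was at 5832 and 5737 there and at 3429 to 3846 in the other 6 libraries at 22 °C.

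Of the 3 members on the lipogenesis list, Scd1 alone was lower in the warm in controls, and Scd1 and Pnpla3 in Cre-labelled libraries, beside 27 and 25 of 36 in the list. Scd1, which makes monounsaturated fatty acids, ran from 221800 to 751700 normalized counts in controls at 22 °C and from 42250 to 71910.0 at 30 °C (log2 difference -2.85, SE 0.44, adjusted p = 9.88e-05). In Cre-labelled libraries the difference was -1.77 (adjusted p = 0.0053), which quantile normalization changed to -0.56 (adjusted p = 0.126). The other members named by the rule do different things. Pgd, of the pentose phosphate pathway, went from 4091 ± 1124 to 1391 ± 111 in controls (-1.52, adjusted p = 3.12e-05). Pmvk, of sterol synthesis, went from 978 ± 186 to 349 ± 60.4 (-1.48, adjusted p = 6.75e-05). Sgk2, a serine/threonine kinase, was at 46.0 to 394 against 34.2 to 45.1 (-1.62, adjusted p = 0.042), and the call held in only 16 of 27 fits. In Cre-labelled libraries Map2k2, a MAP kinase kinase, went from 1465 ± 370 to 586 ± 142 (-1.32, adjusted p = 0.000123), and Smad6 from 149 ± 23.9 to 62.9 ± 19.7 (-1.27, adjusted p = 0.00172).

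Fewer members rose in the warm. Pkia, an inhibitor of protein kinase A, the kinase downstream of adrenergic signals, was at 12.2, 21.4, 54.1 and 32.5 in controls at 22 °C and at 279, 268, 226 and 338 at 30 °C (log2 difference 3.35, SE 0.50, adjusted p = 7.69e-05). Cre-labelled libraries overlapped, with 34.7 to 211 against 93.2 to 250.4. Epb41l1, a membrane skeleton protein, ran from 497 to 2142 at 22 °C and from 2346 to 3361 at 30 °C in controls (1.19, adjusted p = 0.00363). Rfx5, a regulator of MHC class II genes, went from 125 ± 46.4 to 270.0 ± 68.3 (1.13, adjusted p = 0.000392). In Cre-labelled libraries Maff, a small Maf factor, went from 40.1 ± 8.96 to 137 ± 48.6 (1.70, adjusted p = 0.00022), Tnfrsf10b from 193 ± 49.6 to 615 ± 203 (1.65, adjusted p = 0.000256) and Top2a from 40.2 ± 14.4 to 115 ± 41.8 (1.50, adjusted p = 0.0047). At 30 °C 19 of 22 macrophage markers were higher in controls and 20 of 22 in Cre-labelled libraries than at 22 °C, with summed levels of 1592 to 2673 against 4589 to 5932 in controls. Other cell type lists moved too. Skeletal muscle markers were higher in 12 of 24 in controls, with a median log2 difference of 3.67 and summed levels of 3454 to 8458 at 22 °C against 15200 to 25414 at 30 °C, and in 0 of 24 in Cre-labelled libraries, with a median of 0.18. In controls 9 of 12 progenitor, 9 of 13 lymphocyte and 7 of 14 endothelial markers were higher, and in Cre-labelled libraries 8, 7 and 4. The part of these cells in the members' rises was not tested.

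Of the members lower in the warm in controls, 72 (62.1%) were also lower in Cre-labelled libraries, where they were 85.7% of the calls. Of those higher, 22 (35.5%) were also higher, 62.9% of the calls in Cre-labelled libraries. Over all genes these shares were 64.5% and 82.4% for lower genes and 50.2% and 76.5% for higher ones. For the interaction of Cre label and temperature limma called 0 of 408 members, beside 0.44% of all genes tested (58 genes). Without control 22 °C library 1 or control 22 °C library 4, it called 1 member lower (0.245%), beside 0.47% and 0.243% of all genes. At an unadjusted p below 0.05 it was 43 members (10.5%), the same share as over all genes (10.5%).

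Members made up 408 of 13176 tested genes, so short lists would hold few of them in any case, and the counts that follow say nothing particular about the peaks. None of 39 genes known to be repressed by BCL6 in other cells was a member, nor any of 27 genes of the BCL6 family and its corepressors, 34 of JAK, STAT and SOCS signalling, 33 of fatty acid oxidation, 22 of the circadian clock or 37 of apoptosis. Of 28 immediate early genes 3 were members. At 30 °C 12 of the list were higher by Cre label, among the members Maff (log2 difference 0.87, adjusted p = 0.044), and at 22 °C the member Ier3 was lower (-1.74). Esrrg, an oestrogen-related receptor, was the member among 35 brown fat genes. Its level was 360 ± 90.4 in controls and 223 ± 44.5 in Cre-labelled libraries at 30 °C (log2 difference -0.68, adjusted p = 0.106). Pdk1, a kinase that restrains pyruvate entry, was the member among citric acid cycle genes (-0.54, adjusted p = 0.0772). The 4 genes with 2 member peaks did not pass the threshold by Cre label at either temperature. Smc3, a cohesin subunit, had log2 differences of -0.10 and -0.12, Dimt1 of 0.12 and 0.08, Hmgxb3 of 0.42 and 0.22, and Gmeb2 of 0.29 and 0.13 at 30 and 22 °C.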

How the data were processed

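BCL6 binding was read from 1 ChIP sample as a deposited peak list, and RNA from 16 libraries as a deposited table. Per the submitters' processing notes, the tools named include Bowtie2, HOMER, kallisto and DESeq2, with mm10, without their roles or settings. The deposited Peak Score is a score on the authors' scale, with no unit, threshold or control stated. The deposited Focus Ratio is a fraction. The authors' deposited RNA values are normalized counts, a signal that is not whole reads, so no count test was run. Each gene was taken from the deposited Entrez identifier.

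Testing took genes whose 16-library mean reached 10 and was done with limma on log2(value + 1), with all 4 groups in 1 fit (12 residual degrees of freedom) and Benjamini-Hochberg adjustment over 13176 genes at 0.05. Totals ran from 8867615 to 13516936 normalized counts, with 14311 to 16849 genes above 0. On simulated data with 200 of 13176 genes changed by Cre label at 30 °C, 74% were recovered at a log2 change of 1 and 98% at 2. Of the calls there, 6.52% were false. Noise was drawn for each gene separately, so effects shared by all genes of a library were not simulated, nor were smaller changes.

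Named genes were those with the largest differences past the threshold, without overlap between groups, whose higher group averaged 100 or more, clone names left out: 8 each way at 30 °C and 5 each way at 22 °C by Cre label, and 4 each way by temperature. Members of larger lists, peaks at both ends of the score range and genes with 2 peaks were added. The members and lists were chosen with earlier results of these data known. Alternatives were other pseudocounts, filters, normalization, fits and libraries left out.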

Additional observations from a re-analysis of the deposited data

Results flagged for a closer look

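In 9 of 164 groups of 4 libraries (5.49%), over 41 genes, 1 library stood apart from the other 3 by Dixon's criterion. Chance would give about 5% of independent groups. These genes share libraries, and many were chosen for groups that do not overlap, so that level is no fair reference. Of the 9 cases, 4 fell on Cre-labelled 22 °C library 2 and 2 on control 22 °C library 1, the libraries with the fewest genes above 0. Control 22 °C library 1 was highest in its group for Rpl6 (5832 normalized counts) and Ndufb6 (8117). Cre-labelled 22 °C library 2 was highest for Rpl6 (5737), Rps15 (6570.0) and Rps21 (2315) and lowest for Zyx (384.9). Cre-labelled 30 °C library 4 was lowest for Gbp3 (767.1), and Cre-labelled 30 °C library 1 was highest for Rfx5 (216.1). Control 22 °C library 3 was highest for Maff (71.0).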

How the results depend on the processing

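Of 46 named results past the threshold, 39 stayed past it in every fit and 7 (Fggy, Grk3, Itpkc, Sgk2, Scd1 in Cre-labelled libraries, and Smad6 and Tnfrsf10b by Cre label at 30 °C) lost it in at least 1. Past the threshold only in other fits were Ndufs8 by Cre label at 30 °C in 5 of 27 fits (smallest adjusted p = 0.00409 by limma), and Rpl6 (0.046) and Rps21 (0.0498) without the 2 libraries with the most genes at 0. Over fits without 1 library, member counts (of 408) are followed in brackets by the range of shares over all genes. By Cre label at 30 °C they ran from 14 to 26 higher (3.43% to 7.45%) and 14 to 34 lower (4.22% to 8.59%). At 22 °C they ran from 15 to 33 (3.07% to 8.84%) and 7 to 36 (2.73% to 9.03%). By temperature in controls they ran from 48 to 71 (18.8% to 25.1%) and 98 to 126 (19.8% to 24.2%). In Cre-labelled libraries they ran from 23 to 42 (11.3% to 17.6%) and 66 to 92 (13.9% to 19.9%). The interaction gave 0 higher (0.0303% to 0.319%) and 0 to 1 lower (0.129% to 0.47%). An alternative chosen after seeing the data left out the 2 libraries with the most genes at 0. The counts were then 36 and 50 at 30 °C, beside 10.1% and 11.1% of all genes. They were 31 and 37 at 22 °C, beside 8.72% and 9.06%. For the interaction they were 1 and 1 (0.245% each), beside 0.62% and 0.726%. With only the groups compared in the fit, 12 were higher and 5 lower at 22 °C (2.94% and 1.23%, beside 2.09% and 1.89% of all genes). With promoter peaks of any score, the interaction gave 1 lower (0.226%, beside 0.266% of all genes). Rps15 by Cre label at 30 °C, 0.06 with all libraries, ran from -0.027 without Cre-labelled 30 °C library 3 to 0.112 without Cre-labelled 30 °C library 4. The cause was not tested.

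Replicate numbers did not pair the libraries: same-numbered libraries correlated from -0.48 to 0.24 (6 of 24 pairs over 0.1), and 4 of 16 libraries correlated best with their own number. With the replicate number as a block, 21 members were higher (5.15%) and 26 lower (6.37%) at 30 °C, beside 5.21% and 6.1% of all genes. At 22 °C they were 20 (4.9%) and 12 (2.94%), beside 4.82% and 3.99%. The ChIP sample has no replicate, and peaks away from annotated starts were not read for letters.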
